A study of Mus musculus with 4 samples.

Results

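The genes described here write, copy and remove methyl groups on cytosine in DNA. They are the 4 DNA methyltransferase genes Dnmt1, Dnmt3a, Dnmt3b and Dnmt3l, the maintenance cofactor gene Uhrf1 and its paralog Uhrf2. The set also holds the 3 TET dioxygenase genes Tet1, Tet2 and Tet3, and the germline ATPase gene Morc1. All of these were chosen by name, as the rows of the deposited count table with a matching gene symbol. All 10 were found among 25265 genes. All 10 also passed the filter on low counts that left 21132 genes for testing.

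DNMT3A and DNMT3B place new methyl groups, mostly at CpG dinucleotides, and DNMT3L, which has no catalytic activity of its own, stimulates them. After replication UHRF1 binds CpG sites methylated on only the old strand and brings in DNMT1, which copies the mark. TET enzymes oxidise 5-methylcytosine to 5-hydroxymethylcytosine and beyond, a route by which the mark is removed. In the male germ line the mark is laid down before birth in prospermatogonia, where DNMT3L and MORC1 are needed to silence transposons, and it is then copied in the dividing spermatogonia and before meiosis.

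Whole-testis RNA was sequenced after depletion of ribosomal RNA, from C57BL/6 mice aged 56 days after birth. There were 2 libraries labelled control, with no allele named, and 2 labelled Ythdf2-vKO. The series title describes the mutation of Ythdf2, the gene of a cytoplasmic reader of N6-methyladenosine in RNA, as specific to germ cells, and the labels give neither the Cre driver nor the deleted segment. Nothing in the labels says whether the libraries came from separate animals, so the p-values below measure the spread between these libraries, which may be technical.

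Total counts ran from 24862518 to 29561182 per library. Levels are given as CPM, counts scaled to a common library size. Counts of the targeted gene were not lower under the vKO label. Ythdf2 had 51.0 and 53.5 CPM in the controls and 66.3 and 67.0 CPM in the vKO-labelled libraries (log2 fold change 0.35, SE 0.13, adjusted p 0.238 in edgeR). Counts over a whole gene in whole testis do not show whether a segment of it was deleted in germ cells. Groups are therefore named by their labels, and every difference is that of the vKO-labelled libraries relative to control. Markers of spermatogonia, spermatocytes, spermatids, Sertoli cells and Leydig cells on the lists used here were all counted in every library, as the tissue label requires. The 3 counted epididymis markers of 6 summed to 12.2 to 12.5 CPM in the controls and to 9.97 CPM in both libraries labelled vKO.

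The 10 genes differed far more from each other than between the groups. Levels were compared per length, as CPM divided by the length in kilobases of a gene's longest transcript. Uhrf1 was highest, with a mean of 24.7 over the 4 libraries and a range of 22.1 to 27.4. Dnmt1 followed at 10.5 (9.11 to 12.2), and the pair that maintains the mark thus stood above the other 8 genes in every library. Dnmt3l (6.26, from 4.51 to 7.69) and Uhrf2 (5.23, from 4.91 to 5.66) came next, and their ranges overlapped. Dnmt3a (1.82), Morc1 (1.64) and Dnmt3b (1.22) formed a lower step, in which the ranges of Dnmt3a and Morc1 overlapped. The TET genes were lowest, with Tet3 at 0.552, Tet2 at 0.295 and Tet1 at 0.0263. The ranges of Tet3 and Tet2 overlapped across libraries, but Tet3 exceeded Tet2 in each of the 4. Seen against all genes tested on the same scale, 83.1% lay below Uhrf1, 69.2% below Dnmt1, 15.8% below Tet3 and 8.28% below Tet2. With the mean transcript length of each gene in place of the longest, Uhrf2 (10.8) stood above Dnmt3l (9.48) and the rest of the order was the same. The steps were not, since Dnmt3a then stood at 7.59, nearer to Dnmt3l than to Morc1 (2.47). Tet3 then stood at 1.22, close to Dnmt3b at 1.49. The place of Dnmt3a in the lower step, and the gap between Dnmt3b and Tet3, thus depend on the length used.

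**Figure D1:**
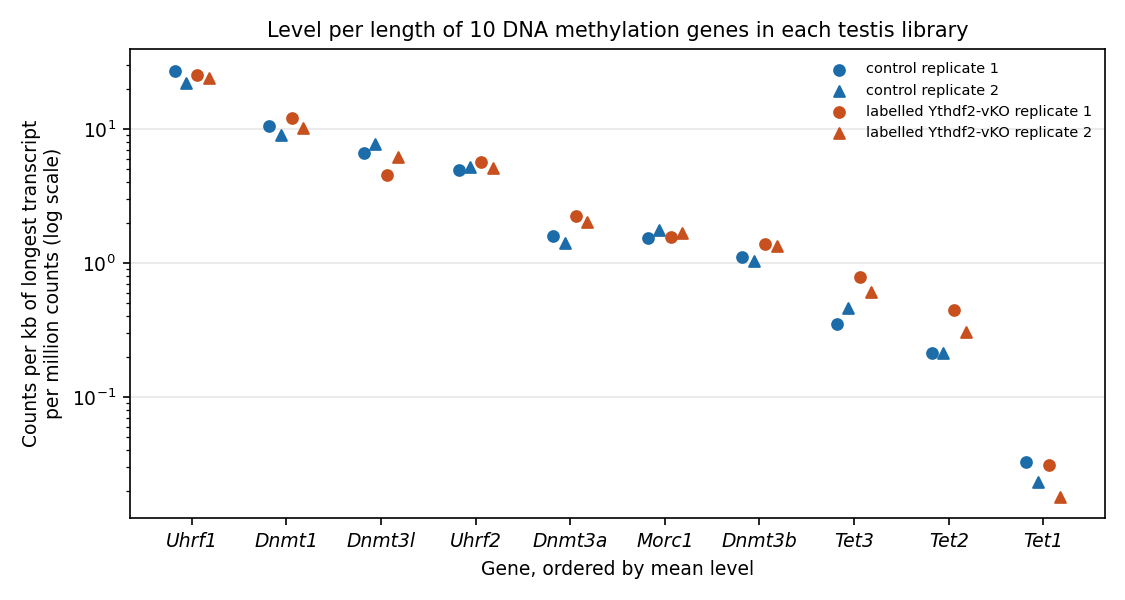
Level per length of each gene in each library, as CPM per kilobase of the longest transcript, on a log axis, with genes ordered by their mean. Uhrf1 lies between 22.1 and 27.4 in all 4 libraries and Tet1 between 0.0181 and 0.0328.

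None of the 10 genes passed the test between the groups, at an adjusted p under 0.05 in the quasi-likelihood test of edgeR, adjusted by Benjamini-Hochberg over all genes tested. Of all genes tested, 0.393% did. At an unadjusted p under 0.05 there were 3 of the 10, Dnmt3a, Tet2 and Tet3, all with higher values in the vKO-labelled libraries. Of all genes tested, 14.1% had such a p in either direction, 7.65% on the higher side and 6.47% on the lower. In CPM the groups did not overlap in 5 of the 10, namely Dnmt3a, Dnmt3b, Tet2 and Tet3 on the higher side and Dnmt3l on the lower. Of all genes tested 45.3% did not overlap, 22.7% on the higher and 22.6% on the lower side, so the members' share lay near the background. The median log2 fold change of the 10 was 0.13, against 0.0027 over all genes tested, with 6 of 10 above 0. This median was 0.024 without replicate 1 labelled vKO (5 of 10 above 0), 0.24 without replicate 2 labelled vKO and 0.22 without control replicate 1 (8 of 10 in each). In the authors' deposited table none of the 9 members with an adjusted p was under 0.05, against 1.32% of the genes for which that table gives one. A DESeq2 Wald test computed from the counts gave the same values for the members, so it is not separate support. When 1 library was left out, the log2 fold change of Dnmt3a ran from 0.42 to 0.60 and that of Tet3 from 0.57 to 0.996.

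**Figure D2:**
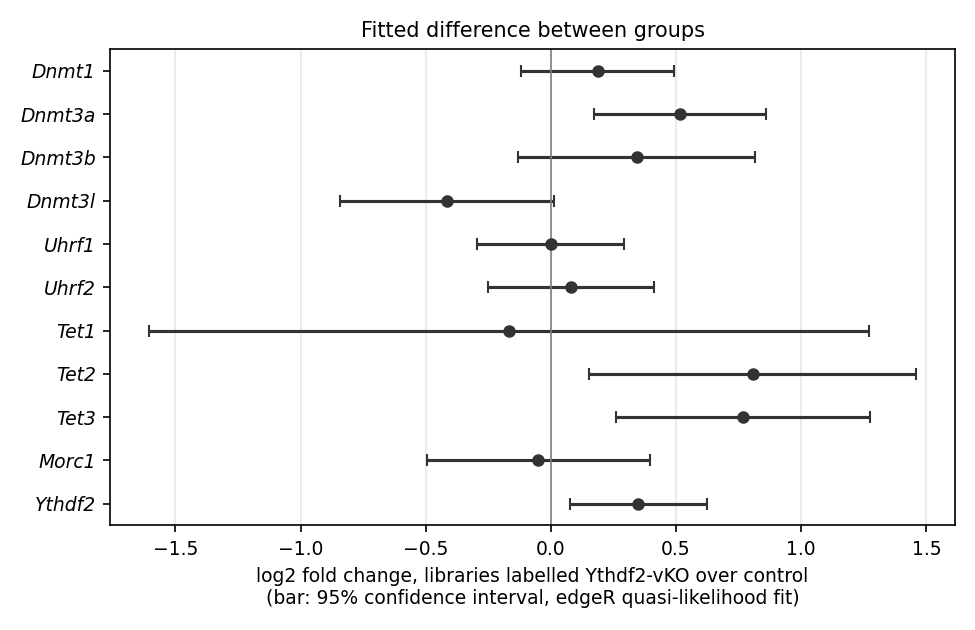
Fitted log2 fold change of the 10 genes and of Ythdf2, libraries labelled Ythdf2-vKO over control, with 95% confidence intervals from the edgeR fit on 2 libraries per group. The intervals of Dnmt3a, Tet2, Tet3 and Ythdf2 lie above 0 without adjustment for the number of genes tested, and that of Tet1 is the widest, from -1.61 to 1.27.

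Dnmt3a (ENSMUSG00000020661, plus strand of chromosome 12, 3806007 to 3914443 in GRCm38) encodes the main de novo methyltransferase of the male germ line. It had 362 and 407 counts in the controls and 584 and 531 in the vKO-labelled libraries. Scaled, these were 15.5 and 13.6 CPM against 21.8 and 19.7 CPM. Both control libraries lay below both libraries labelled vKO. The means were 14.5 ± 1.35 and 20.7 ± 1.51 CPM (SD, n = 2 each), a log2 fold change of 0.52 (SE 0.16, 95% interval 0.17 to 0.86). Its unadjusted p in edgeR was 0.00642 and its adjusted p 0.18. Without control replicate 1 the log2 fold change was 0.60, and without replicate 1 labelled vKO it was 0.44. In those fits the group left with 1 library is assumed to vary like the other. The antisense gene Dnmt3aos, within Dnmt3a, had 1 and 8 counts in the controls and 1 in each vKO-labelled library.

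Dnmt3b (ENSMUSG00000027478, plus strand of chromosome 2, 153649450 to 153687730), the other catalytic de novo enzyme, had 113 and 134 counts in the controls and 161 and 156 in the vKO-labelled libraries. In CPM the values were 4.83 and 4.47 against 6.01 and 5.78, again without overlap. The log2 fold change was 0.34 (SE 0.22, 95% interval -0.13 to 0.82, adjusted p 0.526 in edgeR). Dnmt3c, a rodent duplicate that methylates young transposons in the male germ line, is 93.9% identical to Dnmt3b over 1434 aligned nt of the transcripts. It had 49 and 62 counts in the controls and 73 and 80 in the vKO-labelled libraries, which the fit put at 0.45 on the log2 scale (SE 0.29, adjusted p 0.536). How reads that match both were counted is not given in the sources used here, so the split between the pair is uncertain.

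Dnmt3l (ENSMUSG00000000730, plus strand of chromosome 10, 78041947 to 78063622) was the only member with both libraries labelled vKO below both control libraries. The controls held 281 and 420 counts and the vKO-labelled libraries 220 and 306, which gave 12.02 and 14.01 CPM against 8.22 and 11.3 CPM. The gap between the nearest libraries of the groups was narrow, and the spread within the vKO label was wide. The means were 13.02 ± 1.41 and 9.78 ± 2.21 CPM (SD, n = 2 each), a log2 fold change of -0.41 (SE 0.20, 95% interval -0.84 to 0.01, adjusted p 0.372 in edgeR). This value rests in large part on replicate 1 labelled vKO, without which it was -0.20, while without replicate 2 labelled vKO it was -0.67. Aire overlaps Dnmt3l on the opposite strand over 1664 nt and had 25 and 21 counts in the controls and 38 and 24 in the vKO-labelled libraries. The libraries were made with a directional kit, but whether counting used strand is not given in the sources used here.

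Dnmt1 (ENSMUSG00000004099, minus strand of chromosome 9, 20907209 to 20959888), the maintenance methyltransferase, had 1447 and 1604 counts in the controls and 1919 and 1610 in the vKO-labelled libraries. The CPM values of 61.9 and 53.5 in control overlapped those of 71.7 and 59.7 in the vKO-labelled libraries. The log2 fold change was 0.19 (SE 0.14, 95% interval -0.12 to 0.49, adjusted p 0.609 in edgeR). It was 0.11 with an offset for GC content. Leaving out 1 library moved it from 0.049 (without replicate 1 labelled vKO) to 0.31 (without replicate 2 labelled vKO), with 0.29 without control replicate 1 and 0.086 without control replicate 2.

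Uhrf1 (ENSMUSG00000001228, plus strand of chromosome 17, 56303321 to 56323486) encodes the reader of CpG sites methylated on only the old strand, which recruits DNMT1. It had means of 88.7 ± 13.5 CPM in the controls and 88.6 ± 2.36 CPM under the vKO label (SD, n = 2 each). Its 98.2 and 79.2 CPM in the controls enclosed the 90.3 and 87.0 CPM of the vKO-labelled libraries. The log2 fold change was -0.00061 (SE 0.14), with a 95% interval of -0.29 to 0.29 and an adjusted p of 0.998 in edgeR. The processed pseudogene Gm5648 is 98.3% identical to Uhrf1 over 1590 nt, and had 30 and 33 counts in the controls and 42 and 32 in the vKO-labelled libraries, against 2296 to 2417 counts for Uhrf1. Uhrf2 (ENSMUSG00000024817, plus strand of chromosome 19, 30030513 to 30093722), its paralog, had 17.4 and 18.6 CPM in the controls and 20.0 and 18.0 CPM in the vKO-labelled libraries. The groups overlapped, and the log2 fold change was 0.08 (SE 0.15, 95% interval -0.25 to 0.41, adjusted p 0.873).

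Among the erasers, Tet3 (ENSMUSG00000034832, minus strand of chromosome 6, 83362373 to 83459084) had 89 and 152 counts in the controls and 228 and 180 in the vKO-labelled libraries. That was 3.81 and 5.07 CPM against 8.52 and 6.67 CPM, with no overlap. The means of 4.44 ± 0.893 and 7.59 ± 1.30 CPM (SD, n = 2 each) corresponded to a log2 difference of 0.77 (SE 0.23, 95% interval 0.26 to 1.27). Its unadjusted p of 0.00611 was the smallest of the 10 genes, and its adjusted p in edgeR was 0.178. Without control replicate 2, the higher of the control values, the log2 fold change was 0.996. Without replicate 1 labelled vKO it was 0.58. The noncoding gene B230319C09Rik overlaps Tet3 on the opposite strand over 6568 nt and 5430434F05Rik on the same strand over 3553 nt. Neither is among the genes of the deposited count table.

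Tet2 (ENSMUSG00000040943, minus strand of chromosome 3, 133463679 to 133545139) had 46 and 59 counts in the controls and 109 and 76 in the vKO-labelled libraries. The scaled control values were alike, at 1.97 CPM in each, and both lay below the 4.07 and 2.82 CPM of the vKO-labelled libraries. The log2 fold change was 0.81 (SE 0.30, 95% interval 0.15 to 1.46, unadjusted p 0.0196, adjusted p 0.253 in edgeR). Without replicate 1 labelled vKO it was 0.52. Tet1 (ENSMUSG00000047146, minus strand of chromosome 10, 62804570 to 62908996), the TET gene best known from embryonic stem cells and primordial germ cells, had only 11 and 10 counts in the controls and 12 and 7 in the vKO-labelled libraries. The log2 fold change of Tet1 was -0.17 (SE 0.67, 95% interval -1.61 to 1.27, adjusted p 0.947 in edgeR). At this depth even a large difference in Tet1 could be missed.

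Morc1 (ENSMUSG00000022652, plus strand of chromosome 16, 48431237 to 48630900) had 145 and 214 counts in the controls and 167 and 180 in the vKO-labelled libraries. Its 6.20 and 7.14 CPM in the controls enclosed the 6.24 and 6.67 CPM of the vKO-labelled libraries. The log2 fold change was -0.05 (SE 0.21, 95% interval -0.50 to 0.40, adjusted p 0.951 in edgeR).

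Promoter windows from RefSeq on GRCm38.p6, from 250 bases before to 50 bases after a start, were found for 9 of the 10 genes, in 16 windows; Morc1 had none. They are shown because CpG is the site these enzymes act on, and its density varied widely among their own promoters. Dnmt3l had 6, 4 and 3 CG dinucleotides in its 3 windows, against a median of 7 over 32851 windows of all genes and 16 over the windows of genes tested. Tet2 had 57, more than 99.8% of all windows, and Tet3 had 22. Dnmt3a had 46 and 47 in the overlapping windows at its upstream start and 18 at an internal start. Dnmt3b had 30, Uhrf2 28, Tet1 17 and Uhrf1 12 and 33. Dnmt1 had 2 CG at its most upstream start, 12 at the next and 33 at the most downstream one. Counts per gene do not show which start was used. The windows below are printed 5′ to 3′ on the strand of the gene, with each CG in capitals. They are chr10:78042037-78042336 (plus strand) for Dnmt3l, chr3:133544341-133544640 (minus strand) for Tet2, chr6:83441629-83441928 (minus strand) for Tet3 and chr12:3891494-3891793 (plus strand) for the internal start of Dnmt3a.
Dnmt3l: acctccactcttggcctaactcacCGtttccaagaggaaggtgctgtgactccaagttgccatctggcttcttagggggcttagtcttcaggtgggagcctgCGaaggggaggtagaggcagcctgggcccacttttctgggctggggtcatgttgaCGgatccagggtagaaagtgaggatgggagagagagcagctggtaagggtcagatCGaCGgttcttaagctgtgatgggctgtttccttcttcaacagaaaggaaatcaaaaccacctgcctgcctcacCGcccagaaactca
Tet2: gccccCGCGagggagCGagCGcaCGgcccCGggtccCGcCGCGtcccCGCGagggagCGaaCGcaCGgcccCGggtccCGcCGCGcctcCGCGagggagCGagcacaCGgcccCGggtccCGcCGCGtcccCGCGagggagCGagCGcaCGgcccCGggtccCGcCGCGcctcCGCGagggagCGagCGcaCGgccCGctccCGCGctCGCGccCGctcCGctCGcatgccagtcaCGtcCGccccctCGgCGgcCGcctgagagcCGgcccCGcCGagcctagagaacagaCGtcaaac
Tet3: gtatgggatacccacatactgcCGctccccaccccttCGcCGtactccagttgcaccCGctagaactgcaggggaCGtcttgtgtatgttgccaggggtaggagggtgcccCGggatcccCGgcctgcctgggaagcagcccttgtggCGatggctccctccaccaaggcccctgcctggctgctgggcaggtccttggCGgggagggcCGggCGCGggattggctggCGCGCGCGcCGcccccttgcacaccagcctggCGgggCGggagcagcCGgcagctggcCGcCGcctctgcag
Dnmt3a, internal start: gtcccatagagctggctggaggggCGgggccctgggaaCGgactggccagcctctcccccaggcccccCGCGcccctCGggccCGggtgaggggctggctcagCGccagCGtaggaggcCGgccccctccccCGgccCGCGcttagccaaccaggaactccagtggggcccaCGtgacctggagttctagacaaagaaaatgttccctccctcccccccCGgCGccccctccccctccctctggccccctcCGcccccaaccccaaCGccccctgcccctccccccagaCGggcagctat

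The contrast between the first 2 of these lies in the runs of CG across the whole Tet2 window, set against 6 scattered ones in that of Dnmt3l. Letters of 4 motifs were searched on both strands in the first window of each of the 9 genes, that of the most upstream start. The background shares count every window of a gene. GGGCGG, the core of the GC box, was in 8 of the 9, against 35.7% of all windows and 52.2% of those of genes tested. Dnmt1 lacked it there but held it in the window of its most downstream start. CCAAT was in 3 of 9, against 37.4% of all windows. TATAAA was in 0 of 9, against 13.6% of all windows, and the cAMP response element TGACGTCA in 0 of 9, against 1.79%. GGGCGG and TGACGTCA hold a CG, so they are not independent of the CG counts, and a match is a description of these letters only.

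Levels of cell type markers differed between the same libraries. The Sertoli list (10 of 10 genes counted, none at 0) summed to 1017 and 1054 CPM in the controls and 1455 and 1277 CPM in the vKO-labelled libraries. All 10 of its fold changes lay above 0, and 1 gene, Wt1, was called. The spermatogonia list (11 of 11 counted, none at 0) summed to 118 and 117 CPM in the controls and 141 and 128 CPM in the vKO-labelled libraries, with 10 of 11 above 0 and none called. Both of these sums were highest in replicate 1 labelled vKO, as were those of the Leydig, macrophage and erythrocyte lists given below. Dnmt3a, Tet2 and Tet3 had their highest value in the same library, and so did Dnmt1, Dnmt3b and Uhrf2. A peak in that library was thus not particular to any of these genes or lists. The endothelial list (5 of 5 counted, none at 0) summed to 7.74 and 8.94 CPM in the controls and 11.5 and 12.8 CPM under the vKO label, and the erythrocyte list (5 of 5 counted, none at 0) to 26.8 and 32.5 against 42.2 and 39.3 CPM. The groups did not overlap in either sum. The sums of Leydig cells (292 and 355 against 458 and 345 CPM), peritubular myoid cells (48.2 and 81.1 against 78.5 and 55.4 CPM) and macrophages (34.6 and 44.6 against 47.6 and 37.9 CPM) overlapped. The lists of spermatocytes (1925 and 1995 against 1823 and 1733 CPM) and of elongating spermatids (12366 and 10160 against 9632 and 9905 CPM) had lower sums in the vKO-labelled libraries. Round spermatid markers summed to 2443 and 2228 against 2168 and 2260 CPM, which overlap. The part of these marker levels in the differences of the members was not tested. In bulk tissue, more cells of a type and more RNA per cell cannot be told apart.

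**Figure D3:**
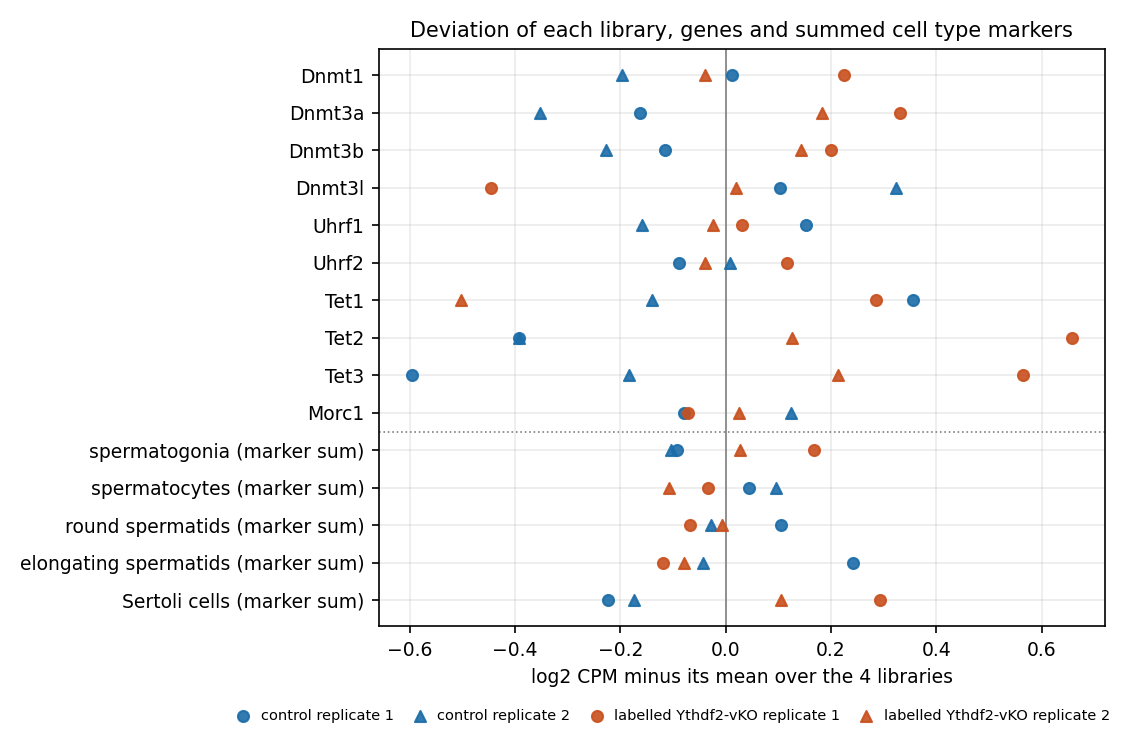
Deviation of each library from the mean of the 4 libraries, in log2 CPM, for the 10 genes (above the dotted line) and for the summed CPM of 5 marker lists (below it). Circles are replicate 1 and triangles replicate 2. Dnmt3a, Dnmt3b, Tet2, Tet3 and the sums of Sertoli and spermatogonia markers have both control libraries left of 0 and both libraries labelled Ythdf2-vKO right of it.

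Fold changes moved with the GC content of transcripts across all genes. Over 17900 genes, the Spearman correlation of log2 fold change with GC content was 0.292, as a description only, since genes share the same libraries. The controls differed from each other: their deviations correlated with GC content at 0.0234 in replicate 1 and -0.399 in replicate 2. In replicates 1 and 2 labelled vKO the values were 0.254 and 0.188. The strongest correlation was thus that of a single control library. The longest transcripts of the 10 members had 43.7% to 54.0% GC, with a median of 52.5% against 48.9% for all genes tested. With an offset for GC content the log2 fold changes were 0.69 for Tet3, 0.88 for Tet2, 0.49 for Dnmt3a, 0.28 for Dnmt3b and -0.48 for Dnmt3l. These 5 genes thus kept their direction at a similar size.

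**Figure D4:**
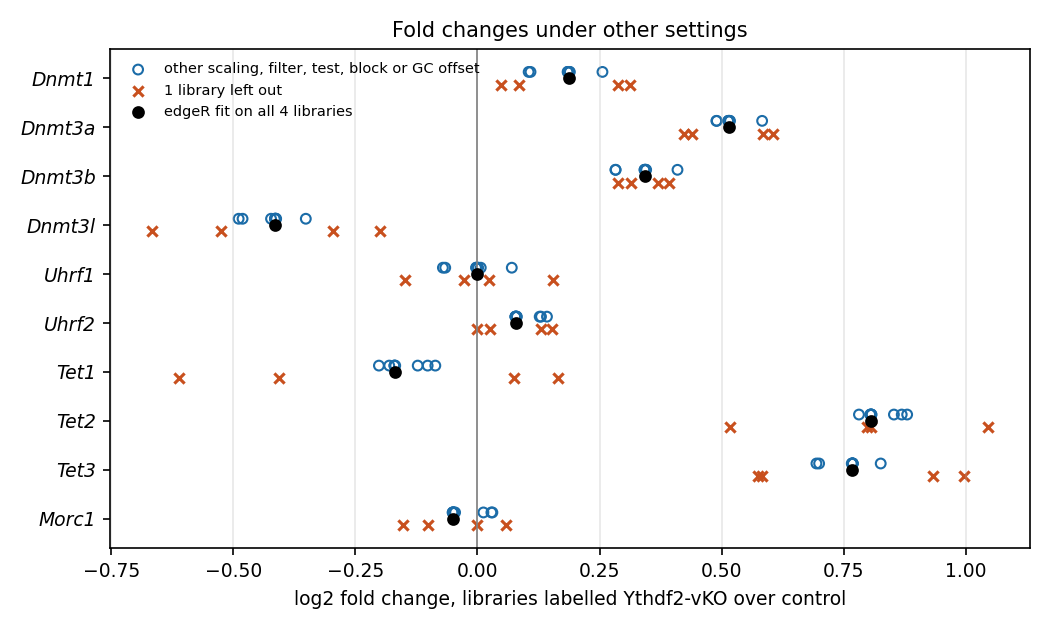
Log2 fold change of each gene, libraries labelled Ythdf2-vKO over control, in the edgeR fit on all 4 libraries (filled), with another scaling, filter, test, block or GC offset (open), and with 1 library left out (crosses). Dnmt3a, Dnmt3b, Tet2, Tet3 and Dnmt1 lie right of 0 and Dnmt3l left of it at every point, while Uhrf1, Uhrf2, Tet1 and Morc1 cross 0.

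Genes that work with these enzymes were read from the same fit. Of 66 on 8 lists, 63 were tested, and none was called in either direction (edgeR adjusted p under 0.05). At an unadjusted p under 0.05 there were 5 on the higher and 3 on the lower side, against the 14.1% of all genes tested. Their median log2 fold change was 0.03. The values that follow are those of the 2 genes with the smallest p on each list, chosen by that rule and not as evidence of a change.

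Of the maintenance partners, 5 were tested, 1 with a fold change above 0. Cdca7l, of the family that includes the partner of the remodeller HELLS, had 14.8 and 16.8 CPM in the controls and 12.1 and 9.45 CPM in the vKO-labelled libraries (log2 fold change -0.55, adjusted p 0.2 in edgeR). Its paralog Cdca7 had 4.62 and 6.10 against 6.80 and 7.34 CPM (0.39, adjusted p 0.46). The 2 paralogs thus had fold changes of opposite sign, that of Cdca7 being 0.21 without control replicate 1 and 0.61 without control replicate 2. Of the germline de novo and piRNA list, 12 were tested, 7 above 0. The smallest p was that of Tex15, a factor of piRNA-directed methylation, followed by that of Dnmt3c, described above. Tex15 had 136 and 146 against 122 and 120 CPM (-0.23, adjusted p 0.43), and its log2 fold change was -0.10 with the GC offset.

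Of 9 chromatin genes that guide methylation, 6 were above 0. Ctcfl, the testis paralog of the insulator gene Ctcf, had 1.07 and 1.10 CPM in the controls and 1.61 and 1.74 CPM in the vKO-labelled libraries (0.62, adjusted p 0.5). Setdb1, a histone H3 lysine methyltransferase, had 80.8 and 74.3 against 90.2 and 81.2 CPM (0.14, adjusted p 0.677). Of 7 methyl-CpG binding genes, 5 were above 0, and those with the smallest p were Zbtb33 (0.52, adjusted p 0.453) and Mbd1 (0.26, adjusted p 0.489). Neither list held a gene with an unadjusted p under 0.05. Without replicate 1 labelled vKO the log2 fold changes were 0.21 for Zbtb33, 0.066 for Mbd1 and 0.066 for Setdb1, and without replicate 2 labelled vKO they were 0.43 for Mbd1 and 0.22 for Setdb1.

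Of the 11 tested genes of base excision and demethylation, 7 were above 0. Gadd45a, a stress-induced gene that has been linked to DNA demethylation, had 1.33 and 2.17 CPM in the controls and 3.89 and 2.93 CPM in the vKO-labelled libraries (log2 fold change 0.95, SE 0.33, adjusted p 0.225 in edgeR). Gadd45b had 3.47 and 3.87 against 6.24 and 4.97 CPM (0.61, adjusted p 0.276 in edgeR). With the GC offset the log2 fold change was 0.46 for Gadd45b and 0.97 for Gadd45a. On the lower side Lig3, the ligase that seals base excision gaps, named after its values were seen, had 348 and 320 against 277 and 279 CPM (-0.26, unadjusted p 0.042, adjusted p 0.331). Tdg, the glycosylase that removes the oxidised products of TET enzymes, also named after its values were seen, had 8.30 and 7.97 against 10.5 and 9.97 CPM (0.33, adjusted p 0.454). The log2 fold change of Gadd45a was 1.36 without control replicate 2 and 0.64 without control replicate 1.

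All 5 tested genes of TET partners and cofactor supply were above 0. Cxxc5, a CXXC zinc finger gene linked to TET2, had 103 and 93.1 CPM in the controls and 132 and 116 CPM in the vKO-labelled libraries (0.34, SE 0.13, adjusted p 0.255 in edgeR). Without control replicate 1 its log2 fold change was 0.40, and that of Cdca7l was -0.65. Idh1, a source of the alpha-ketoglutarate that TET enzymes use, had 23.1 and 30.2 against 33.5 and 30.6 CPM (0.27, adjusted p 0.49). In the methyl donor cycle 5 of 10 were above 0. Shmt2, which makes one-carbon units in mitochondria, had 7.53 and 7.37 against 12.6 and 10.7 CPM (0.64, SE 0.19, adjusted p 0.158). Mat2b, the regulatory subunit of S-adenosylmethionine synthesis, had 10.6 and 12.9 against 13.6 and 14.2 CPM (0.24, adjusted p 0.592). Of the 4 other MORC genes 1 was above 0: Morc4 had 1.93 and 2.13 against 2.54 and 4.08 CPM (0.70, adjusted p 0.339) and Morc3 had 55.0 and 55.7 against 45.7 and 42.6 CPM (-0.33, adjusted p 0.281). Without control replicate 1 the log2 fold changes of Idh1 and Mat2b were 0.081 and 0.098, and without control replicate 2 they were 0.47 and 0.39. That of Morc4 was 0.32 without replicate 2 labelled vKO. The GC offset brought Shmt2 to 0.49, Cxxc5 to 0.23 and Morc3 to -0.24, each smaller in size. It brought Idh1 to 0.35, Mat2b to 0.31 and Morc4 to 0.76, each larger.

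The genes whose pattern over the 4 libraries lay nearest to that of a member were found by the root-mean-square distance of log2 CPM deviations, among 17825 genes of at least 1 CPM. For Tet3, the member with the smallest p, they were Ly6e (distance 0.0195), Slc1a4 (0.0337) and Lgi4 (0.0348). For Uhrf1, the member with the highest level per length, they were Trafd1 (0.00414), Eme2 (0.0064) and Mxra7 (0.00694). With 4 libraries such closeness is common: 50 genes lay within 0.1 of Tet3 and 2057 within 0.1 of Uhrf1.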

How the data were processed

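Raw read counts per gene and library were deposited by the authors in 1 table, per the file headers. HISAT2 2.1.0 and HTSeq 0.6.1p1 are named in the submitters' processing notes, with no settings; the genome build is not given in the sources used here. Per the file headers the authors also deposited a mean normalized count (a signal), a log2 fold change with its error, a test score (statistic) and a p-value with its adjusted p-value. Mean normalized counts were recomputed from the counts to check the columns, with relative differences of up to 4.93e-10. No gene had under 10 counts in all.

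Counts were tested with edgeR 4.0.16 (R 4.3.3): filterByExpr, TMM, a robust quasi-likelihood fit of genotype, and Benjamini-Hochberg adjustment over 21132 genes, called at an adjusted p under 0.05. An exact permutation test of 2 against 2 libraries cannot go below 0.333 and was not used. CPM are TMM-scaled. The standard error is the absolute log2 fold change divided by the square root of F. Positions, lengths and GC are from GENCODE M21 (GRCm38), which held 25241 of 25265 identifiers. Replicates differed by more than sampling noise (chi-square per degree of freedom 19.4 in control, 7.84 under the vKO label). Overlapping genes and copies of at least 90% identity over 200 nt were sought for each member. Scripts were tested on simulated data.

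The members and gene lists were chosen with earlier results of these data known. The naming rule took all members, Ythdf2, called genes of the pathway lists, the 2 smallest p-values per list and the 3 nearest patterns of 2 members. Marker lists for Leydig, peritubular myoid, macrophage, endothelial and erythrocyte cells had medians of 0.36, -0.05, 0.09, 0.37 and 0.76 in log2 fold change, with no gene called. Alternatives covered scaling, filters, DESeq2 1.42.0, a fit without robust estimation, a replicate block, a GC offset and leaving out each library.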

Additional observations from a re-analysis of the deposited data

How the results depend on the processing

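The number of genes called over the whole table was 83 (59 higher, 24 lower), and it moved to 218 with library totals alone (181 and 37), 217 with a DESeq2 Wald test, and 35 to 1512 when 1 library was left out. No member was called in any fit on all 4 libraries without a replicate block, and 0 to 1 were called when 1 library was left out. For the pathway lists these counts were 0 and 0 to 5. The labels give both groups the same replicate numbers without saying what they mark, and across genes the deviations of libraries with the same number had a correlation of 0.0792 with only 2 pairs; they are read here as numbers only, not as a pairing. With the replicate block 1017 genes were called, 1 member (Dnmt3a, adjusted p 0.0418) and 1 pathway gene (Shmt2, 0.0427). The GC offset combined with the replicate block gave 566 calls (313 higher, 253 lower), none of them a member, and Ythdf2 passed (log2 fold change 0.41, adjusted p 0.0339).

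Fold changes near 0 changed sign. Uhrf1 was at 0.0703 with library totals alone, 0.0014 with at least 10 counts in every library and 0.0068 with the replicate block. Morc1 was at 0.012 with library totals alone, 0.029 with the GC offset and 0.031 with the GC offset and replicate block. Leaving out 1 library, the log2 fold change ran from -0.15 to 0.16 for Uhrf1, -0.00019 to 0.15 for Uhrf2, -0.61 to 0.17 for Tet1 and -0.15 to 0.0586 for Morc1. The highest member level per length exceeded the lowest 984-fold, and 371-fold with mean transcript lengths. Beyond what the changed lengths and the fewer libraries bring by construction, the causes were not tested. Counts of 7 to 12 limit Tet1, and Tet1 has no value with at least 10 counts in every library.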

Other observations

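Within each library, the ratio of members is free of scaling between libraries. Counts of Dnmt3a were 1.29 and 0.969 times those of Dnmt3l in the control libraries and 2.65 and 1.74 times in the vKO-labelled libraries, so that the ratio was higher in both of the latter. The ratio of Tet3 to Dnmt3l counts was 0.317 and 0.362 in the controls and 1.04 and 0.588 in the vKO-labelled libraries. Both pairs were picked after their values were seen, and neither ratio was tested. The ratio of Dnmt3a to Dnmt3b counts was 3.20 and 3.04 in the controls against 3.63 and 3.40 under the vKO label. That of Uhrf1 to Dnmt1 was 1.59 and 1.48 against 1.26 and 1.46, a narrow gap between the nearest libraries. The ratio of Tet3 to Tet2 counts, 1.93 and 2.58 against 2.09 and 2.37, overlapped. None of these was tested either.

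Per length, Tet3 held 58.6% and 66.2% of the summed TET level in control and 62.2% and 65.3% in the vKO-labelled libraries, while the sum itself was 0.596 and 0.703 against 1.26 and 0.937. The share of Tet2 was 36.0% and 30.5% in the controls against 35.3% and 32.8%, and that of Tet1, from 7 to 12 counts a library, was 5.49% and 3.30% against 2.48% and 1.93%. The shares of Tet3 and Tet2 thus overlapped between the groups, while those of Tet1 and the sum did not. The summed DNMT level ran from 19.2 to 20.4 over the 4 libraries. Within it the share of Dnmt3l was 33.2% and 40.0% in control and 22.1% and 31.5% in the vKO-labelled libraries.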
